A study of Rattus norvegicus with 6 samples.

Results

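The genes described here are 9 transcription factors of the immediate-early class that respond to the kinase ERK: Fos (ENSRNOG00000008015), Fosl1 (ENSRNOG00000020552), Jun (ENSRNOG00000026293), Junb (ENSRNOG00000042838), Atf3 (ENSRNOG00000003745), Egr1 (ENSRNOG00000019422), Egr2 (ENSRNOG00000000640), Nr4a1 (ENSRNOG00000007607) and Myc (ENSRNOG00000004500). They were picked as a list of Ensembl identifiers. All 9 were found among the 33884 genes of the count table, and all 9 passed edgeR's filter on low counts, which kept 12756 genes. Expression was measured by RNA-seq in macrophages taken from the infarcted heart of Sprague Dawley rats at 72 h after myocardial infarction (MI), which the study induced by tying off the left anterior descending coronary artery in male animals aged 8 to 10 weeks. The WT group and the Dusp6-deficient group (Dusp6-/-) held 3 libraries each, and both had undergone MI, so that neither group was uninjured. Dusp6-deficient rats carry an inserted adenine in exon 1 of Dusp6 that creates a premature stop codon, and the mutation is not limited to macrophages. Infarcted tissue was digested with Liberase DL, and cells stained for CD45, a protein of leukocytes, and with HIS36, an antibody against rat macrophages, were sorted straight into Trizol. The identifiers of Dusp6 and of macrophage markers are not paired with names in the tables used here, so the genotype and the cell type of each library rest on its label. Whether a library came from 1 rat or from several is not given in the sources used here, and the p-values measure the spread between these libraries.

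Growth factors, cytokines and danger signals activate the kinase ERK, which phosphorylates ternary complex factors such as Elk1 at the promoters of immediate-early genes. These genes are transcribed within minutes and need no newly made protein. Their products are themselves transcription factors: Fos and Jun proteins pair to form AP-1, Egr proteins bind GC-rich sites through zinc fingers, Nr4a1 is an orphan nuclear receptor, and Myc drives cell growth. DUSP6 removes the activating phosphates from ERK, which is why the level of these transcripts is of interest in cells that lack it. The libraries hold the RNA of cells after digestion and sorting. No library was made without these steps, so their effect on these levels was not tested. The levels are those of sorted cells and not of cells in place.

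The RefSeq promoter table (build GRCr8) held an entry for 5 of the 9 genes, Egr1, Egr2, Fosl1, Junb and Nr4a1. The 250 bases before the listed start are printed for Nr4a1 and Junb, whose levels did not overlap between the genotypes, and for Egr2, which matches the CArG box, the motif of serum response factor through which ERK is known to act on this class of gene. The sequences run 5′ to 3′, and capitals mark matches on either strand to the motif TGCGTCA, to TATAAA or to the CArG box.
Nr4a1, chr7:134259888-134260137, plus strand: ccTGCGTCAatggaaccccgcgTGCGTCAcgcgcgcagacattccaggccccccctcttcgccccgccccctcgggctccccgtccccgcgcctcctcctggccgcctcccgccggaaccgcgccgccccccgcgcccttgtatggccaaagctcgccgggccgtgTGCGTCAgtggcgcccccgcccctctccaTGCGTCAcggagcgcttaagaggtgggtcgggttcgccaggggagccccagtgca
Junb, chr19:40080876-40081125, plus strand: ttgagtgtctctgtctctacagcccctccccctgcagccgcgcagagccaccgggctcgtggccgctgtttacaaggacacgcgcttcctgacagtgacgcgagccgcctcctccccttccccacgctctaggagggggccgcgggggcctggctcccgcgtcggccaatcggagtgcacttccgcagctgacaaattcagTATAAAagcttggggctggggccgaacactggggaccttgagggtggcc
Egr2, chr20:21054442-21054691, minus strand: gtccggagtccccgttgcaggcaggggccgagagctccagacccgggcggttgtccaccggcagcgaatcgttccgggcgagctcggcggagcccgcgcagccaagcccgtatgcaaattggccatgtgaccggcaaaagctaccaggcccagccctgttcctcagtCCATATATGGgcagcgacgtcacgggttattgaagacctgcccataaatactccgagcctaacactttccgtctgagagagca

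The Nr4a1 window held 4 copies of TGCGTCA, a sequence that resembles the cyclic AMP response element, starting 248, 228, 84 and 55 bases before the start. Fosl1 held 2 copies, and Junb, Egr1 and Egr2 held 0. At least 1 copy was present in 1.66% of 33469 rat promoters of the same length. The CArG box was matched 2 times in Egr1 and 1 time in Egr2, in both genes with a match that starts 83 bases before the start, and 1.5% of all promoters held a match. Junb held TATAAA starting 49 bases before the start, as 12.9% of all promoters held it. The motif GGGCGG, bound by Sp1, was matched 3 times in Nr4a1 and 1 time each in Egr2 and Fosl1 (30.5% of all promoters). None of the 5 windows matched TGACGTCA, the full cyclic AMP response element (1.59% of all promoters), the AP-1 motif TGANTCA (6.34%), the E-box CACGTG that Myc is known to bind (5.59%) or the Egr motif GCGTGGGCG (0.478%). These matches describe the letters of the windows and not the binding of a factor.

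The deposited values were numbers of reads counted per gene. The libraries held between 12089585 and 17274938 of them. Levels are given as CPM, counts relative to a library size scaled by the TMM method, which corrects for differences in composition, and a floor of 3 counts lay between 0.172 and 0.242 CPM. The 9 genes together took 0.838%, 0.847% and 0.962% of all counted reads in the WT libraries and 0.928%, 0.683% and 0.718% in the Dusp6-deficient libraries. In these unscaled shares, replicates 2 and 3 of the Dusp6-deficient group were the lowest of the 6 libraries. Replicate 1 lay within the WT range. This order depends on the scaling. The TMM factors were 0.874 and 0.885 in Dusp6-deficient replicates 2 and 3, 1.01 in replicate 1 and 1.07, 1.05 and 1.14 in WT. Summed in CPM, the 9 genes were above the WT range in Dusp6-deficient replicate 1, inside it in replicate 3 and lowest in replicate 2. Over all genes tested, Dusp6-deficient replicate 1 was also unlike the rest of its group. The chi-square of its counts per gene was 155 and 129 against Dusp6-deficient replicates 2 and 3, which differed from each other by 27.9, and 137, 123 and 110 against WT replicates 1, 2 and 3. It was thus nearer to WT replicates 2 and 3 than to either library of its own genotype by this measure, which also grows with depth, and WT replicate 3 was the library of lowest depth. Of the 9 genes, 8 had a median of at least 287.5 reads per library, and Fosl1 had a median of 41 reads. Because transcript lengths were not used, the levels of different genes are not compared with each other. In RNA from a sorted population, fewer cells that express a gene and less RNA per cell cannot be told apart.

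No gene of the 9 was called different between the genotypes. With edgeR's quasi-likelihood test, 0 of 9 passed an adjusted p of 0.05 together with a log2 fold change beyond 1, where 5.62% of the genes tested did (3.47% or 442 higher and 2.16% or 275 lower in Dusp6-deficient macrophages, and 348 and 345 with upper-quartile scaling). With DESeq2's Wald test, the count was also 0 of 9, against 10.2% of all genes. The adjusted p alone was passed by 0 of 9 with either tool, against 8.22% of all genes with edgeR and 17.1% with DESeq2. At an unadjusted p under 0.05 the count was 1 of 9 with edgeR, against 30.6% of all genes. It was also 1 of 9 with DESeq2, where 4183 genes had such a p and 12797 had an adjusted p. That gene was Nr4a1 with either tool. A count of 0 among 9 genes is close to such a background and is not read as a property of this group. Levels in CPM were separate between WT and Dusp6-deficient libraries for Nr4a1 and Junb, 2 of 9 genes or 22.2%, against 34.1% of all genes tested. Nr4a1 was the 1 gene of 9 that lay lower without overlap, as 16.3% of all genes did, and Junb the 1 that lay higher, as 17.8% did.

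**Figure D1:**
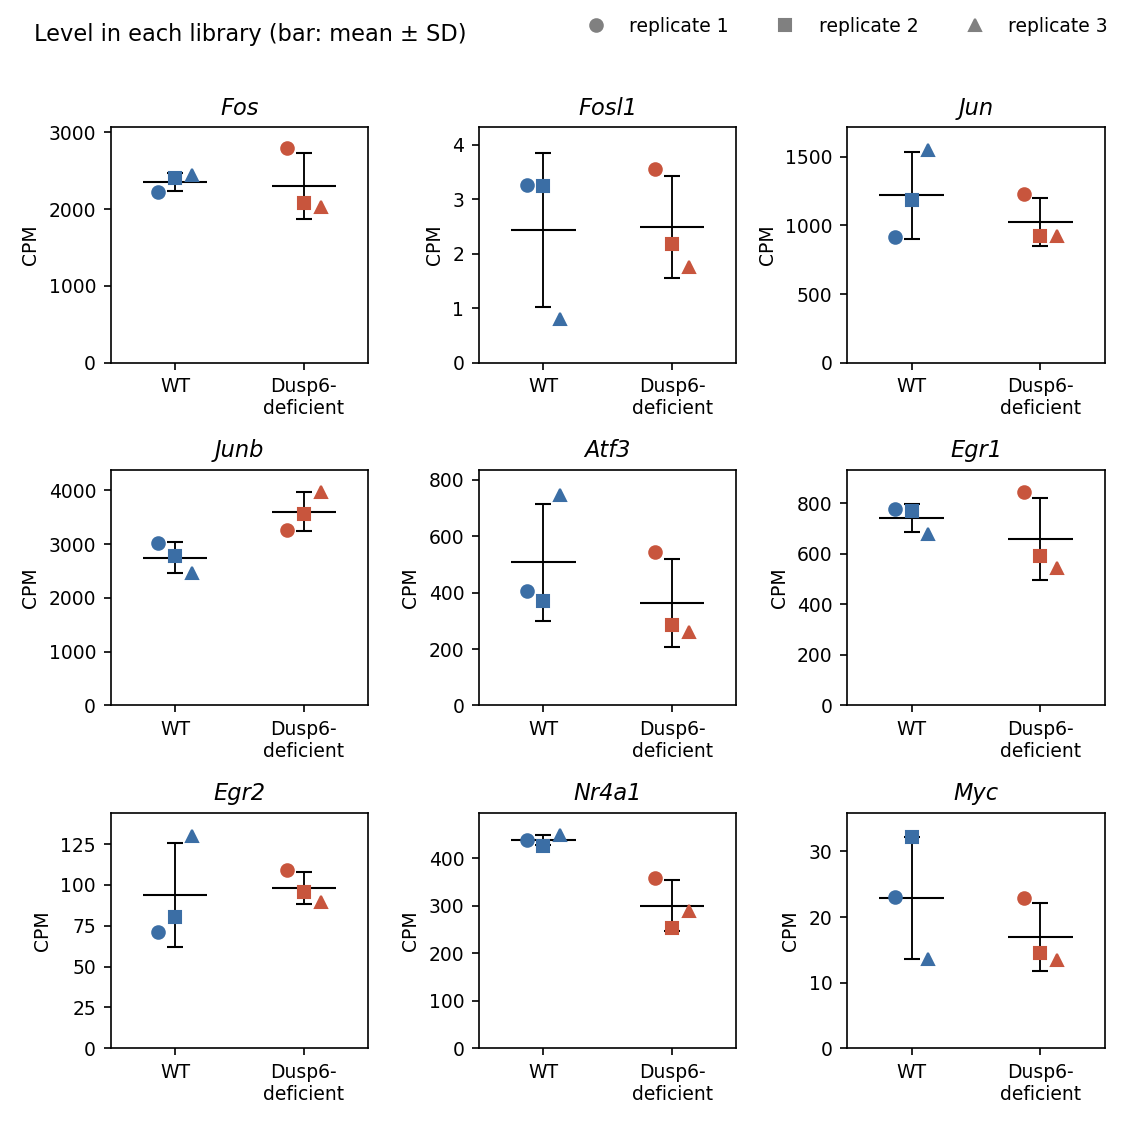
Level of each of the 9 genes in CPM (vertical axes, from 0) in WT (blue) and Dusp6-deficient (red) libraries, with replicates 1, 2 and 3 as circle, square and triangle, and the mean ± SD (n = 3) in black. Nr4a1 is lower in each of the 3 Dusp6-deficient libraries, Junb is higher in each, and the other genes overlap.

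Fos, the founding member of the AP-1 family that needs a Jun partner to bind DNA, was at 2221, 2401 and 2441 CPM in WT replicates 1, 2 and 3 and at 2795, 2083 and 2024 CPM in Dusp6-deficient replicates 1, 2 and 3. The genotypes overlapped, since Dusp6-deficient replicate 1 held the highest level of the 6 libraries and replicates 2 and 3 held the lowest. With edgeR's quasi-likelihood test the log2 fold change was -0.03 ± 0.21 (SE) at an adjusted p of 0.930, and its 95% interval, which is not adjusted for the number of genes, ran from -0.50 to 0.43. Without Dusp6-deficient replicate 1 it was -0.25, and without replicate 2 or 3 of that group it was 0.03 or 0.02. WT macrophages had a mean of 2354 ± 117 CPM (SD, n = 3). Dusp6-deficient macrophages had one of 2301 ± 429 CPM (SD, n = 3), a spread wider than the difference.

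Fosl1 encodes Fra-1, a Fos family protein that lacks a strong activation domain and is known to accumulate under sustained ERK activity. It was counted 55, 56 and 11 times in WT and 62, 27 and 22 times in Dusp6-deficient libraries, or 3.27, 3.24 and 0.802 CPM against 3.55, 2.18 and 1.76 CPM. All 6 libraries lay above the floor of 3 counts, which covers counting error only, and WT replicate 3 was the lowest. Its log2 fold change of 0.04 had an interval from -1.22 to 1.29 at an adjusted p of 0.973 in edgeR's test, so a change of 2-fold in either direction was not excluded at this depth. Without WT replicate 3 the log2 fold change was -0.40, and without WT replicate 2 it was 0.29.

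Jun, the partner that can bind DNA as a pair with itself or with Fos proteins, was at 917, 1188 and 1553 CPM in WT and at 1226, 922 and 921 CPM in Dusp6-deficient macrophages. The WT libraries spanned a range that held all 3 Dusp6-deficient values. In edgeR's test Jun had a log2 fold change of -0.25 ± 0.25 (SE) and an adjusted p of 0.512. Without WT replicate 3 the log2 fold change was -0.07, and without Dusp6-deficient replicate 1 it was -0.45.

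Junb, a Jun family protein that is known to activate fewer promoters than Jun and to hold back Jun in some settings, was at 3014, 2784 and 2458 CPM in WT and at 3272, 3568 and 3980 CPM in Dusp6-deficient macrophages. Each Dusp6-deficient library lay above each WT library, by a narrow margin for replicate 1. On the log2 scale the difference was 0.39 ± 0.20 (SE), a fold of 1.31 with a 95% interval from 0.963 to 1.78, and it did not pass edgeR's quasi-likelihood test at an adjusted p of 0.210. The separation rested on the scaling. With unscaled library totals, Junb was at 3210, 2927 and 2790 CPM in WT and at 3307, 3116 and 3520 CPM in Dusp6-deficient libraries, which overlap. That scaling moves the median log2 fold change of all genes by -0.23, and relative to this shift Junb was at 0.39.

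Atf3, a stress-induced factor that pairs with Jun proteins and is known to restrain inflammatory genes in macrophages, was at 407, 371 and 746 CPM in WT and at 545, 286 and 260.09 CPM in Dusp6-deficient macrophages. In each genotype a single library stood well above the other two, replicate 3 in WT and replicate 1 in the Dusp6-deficient group. Its log2 fold change of -0.48 ± 0.36 (SE) had an interval from -1.30 to 0.34 and an adjusted p of 0.392 in edgeR's test, and it was -0.13 without WT replicate 3. The highest WT library was 2.01-fold above the lowest, and the highest Dusp6-deficient library was 2.09-fold above the lowest, both wider than the difference between the genotypes.

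Egr1, a zinc finger factor that is a textbook target of ERK and Elk1, was at 778, 769.8 and 678 CPM in WT and at 846, 592 and 543 CPM in Dusp6-deficient macrophages. As for Fos, replicate 1 of the Dusp6-deficient group was above all WT libraries and replicates 2 and 3 were below them. The test by edgeR gave a log2 fold change of -0.17 ± 0.22 (SE) and an adjusted p of 0.632. Without Dusp6-deficient replicate 1 the log2 fold change was -0.44, and without replicate 3 of that group it was -0.07.

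Egr2, the family member with known roles in monocyte differentiation, was at 70.9, 80.2 and 130.07 CPM in WT and at 109, 95.4 and 89.6 CPM in Dusp6-deficient macrophages. The Dusp6-deficient values all fell inside the WT range. The log2 fold change of 0.07 ± 0.25 (SE) had an adjusted p of 0.881 in edgeR's test, and WT replicate 3 was 1.83-fold above WT replicate 1. Without WT replicate 1 the log2 fold change was -0.13, and without WT replicate 3 it was 0.34.

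Nr4a1, an orphan nuclear receptor that is known to be needed for patrolling monocytes and to limit inflammation in macrophages, was counted 7388, 7393 and 6161 times in WT and 6268, 3132 and 3600 times in Dusp6-deficient libraries. The levels were 439, 427 and 449 CPM in WT and 359, 253 and 288 CPM in Dusp6-deficient macrophages. Each Dusp6-deficient library lay below each WT library, and the WT libraries lay close together, with 438 ± 10.9 CPM (SD, n = 3) against 300.02 ± 54.1 CPM (SD, n = 3). This was a log2 fold change of -0.55 ± 0.20 (SE), a fold of 0.685 with a 95% interval from 0.502 to 0.934. It did not pass the threshold after adjustment. The adjusted p was 0.105 by edgeR over 12756 genes and 0.0644 by DESeq2 over 12797 genes. Over all alternatives the adjusted p ran from 3.79e-05 (DESeq2) to 0.308 (edgeR), and it was under 0.05 only in the 2 fits without Dusp6-deficient replicate 1. The 0.308 came without Dusp6-deficient replicate 2, a fit that called 2 of all genes higher and 6 lower. By its p it stood at position 2672 of 12756 genes, and 21.6% of genes had a log2 fold change as low or lower. With unscaled library totals, Nr4a1 was at a log2 fold change of -0.54 relative to the shift of -0.23 in the median of all genes.

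Myc, a growth regulator that pairs with Max and binds E-boxes, was at 23.0, 32.2 and 13.6 CPM in WT and at 23.0, 14.5 and 13.4 CPM in Dusp6-deficient macrophages. The lowest WT library was at the level of Dusp6-deficient replicates 2 and 3. Myc had a log2 fold change of -0.43 ± 0.35 (SE) with an interval from -1.22 to 0.35 and an adjusted p of 0.423 in edgeR's test, and the WT libraries spanned a 2.36-fold range. Without WT replicate 2 the log2 fold change was -0.11, and without Dusp6-deficient replicate 1 it was -0.77.

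**Figure D2:**
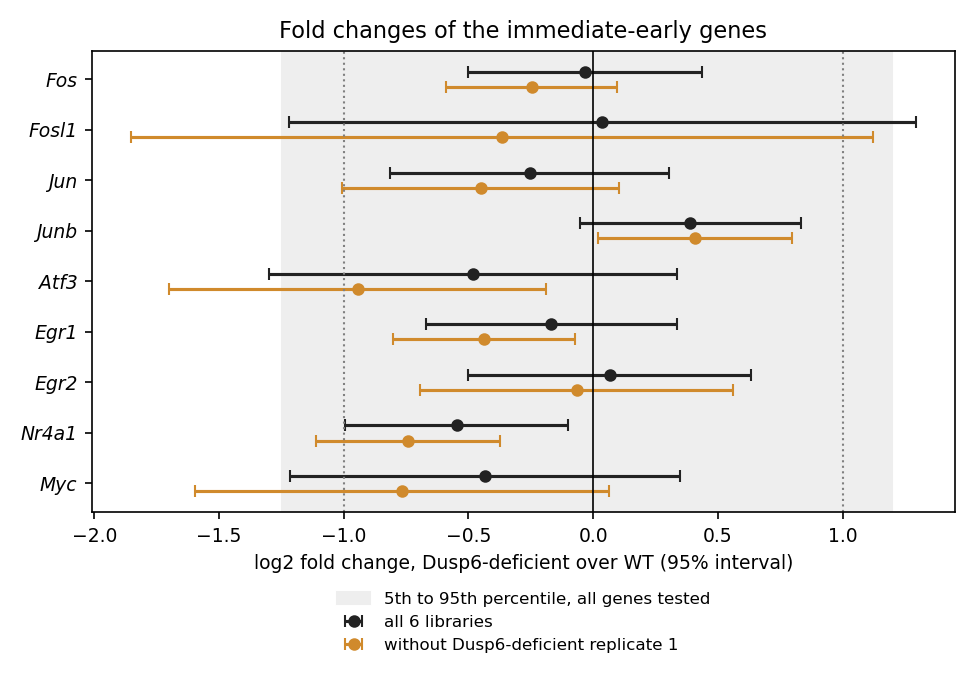
Log2 fold change, Dusp6-deficient over WT, of each gene with its 95% interval from edgeR, with all 6 libraries (black) and without Dusp6-deficient replicate 1 (orange). The grey band spans the 5th to 95th percentile of all genes tested, from -1.25 to 1.20, dotted lines mark -1 and 1, and all black points lie within the band.

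Read together, 6 of the 9 log2 fold changes were negative and 3 were positive, with a median of -0.17 against 0.02 over all genes tested. Without Dusp6-deficient replicate 1, all but Junb were negative, and the middle value was that of Egr1, at -0.44. Without WT replicate 2, the middle value was that of Myc, at -0.11. Fosl1 and Egr2 turned negative with upper-quartile scaling, which moves the median of all genes by -0.07, and with unscaled totals. Relative to these shifts both stayed positive, Fosl1 at 0.04 and 0.08 and Egr2 at 0.06 under either scaling. Leaving out 1 library turned both in some fits, relative to the shift of that fit. Fosl1 was at -0.36 without WT replicate 3 and -0.32 without Dusp6-deficient replicate 1. Egr2 was at -0.09, -0.03 and -0.02 without WT replicate 1, WT replicate 2 or Dusp6-deficient replicate 1. In the other edgeR fits without 1 library, each gene was positive. The intervals of Fos, Jun, Junb, Egr1, Egr2 and Nr4a1 lay between log2 values of -1 and 1, and those of Fosl1, Atf3 and Myc reached beyond. For Fos, Junb, Egr1 and Egr2 this held in each of 12 alternative fits with edgeR. The interval of Nr4a1 reached below -1 in 11 of these 12 fits and that of Jun in 3, so a change of 2-fold was not excluded for either. The plot of log2 fold changes shows this difference in precision between the genes.

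How far the genes varied among libraries of the same genotype also differed. The standard deviation of log2 CPM within genotypes was 0.15 for Junb, 0.18 for Nr4a1 and 0.19 for Fos, against a median of 0.36 over all genes tested. For Fosl1, Atf3 and Myc it was 0.83, 0.56 and 0.53, above that median. Jun, Egr1 and Egr2 lay between these values and below the median. As deviation grows with counting noise at low counts, the value of Fosl1, with 11 to 62 reads, is not comparable with those of the deeply counted genes. The median over all genes is not at like depth either. The median count was 229 reads over all genes tested, against 48955 for Junb, 35446 for Fos and 6214.5 for Nr4a1. The spread was wider in Dusp6-deficient libraries for 4 genes, among them Nr4a1 (0.04 in WT and 0.26) and Fos (0.07 and 0.26). It was wider in WT for the other 5, among them Fosl1 (1.07 in WT and 0.49), Jun (0.38 and 0.24), Egr2 (0.46 and 0.15) and Myc (0.62 and 0.41). These differences were not tested.

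**Figure D3:**
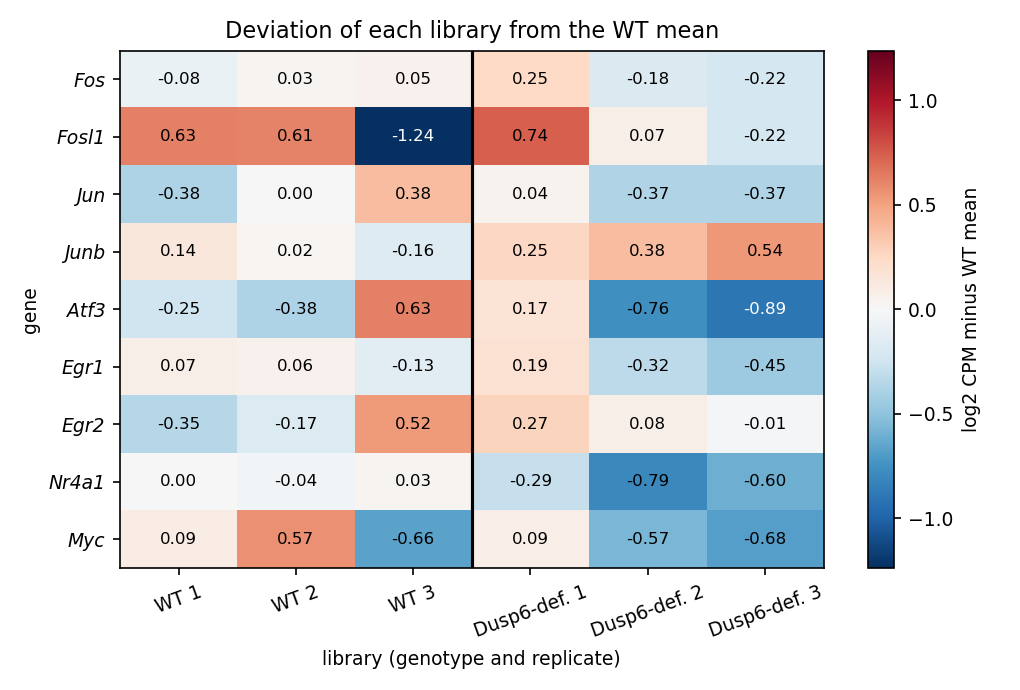
Log2 CPM of each gene in each library minus the mean of the 3 WT libraries (red, higher; blue, lower; the value is printed in each cell). Dusp6-deficient replicate 1 is above the WT mean for 8 of 9 genes, whereas replicates 2 and 3 are below it for most genes other than Junb.

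Dusp6-deficient replicate 1 stood apart from the other two libraries of its group. It held the highest level of its genotype for Fos, Fosl1, Jun, Atf3, Egr1, Egr2, Nr4a1 and Myc, 8 of 9 genes, and the lowest for Junb. Over all genes tested it was the highest of its group for 40.8% and the lowest for 39.7%. Replicate 3 of the same group was the lowest for 7 of 9 genes, against 31.1% of all genes. In WT, replicate 3 was at one end of its group for all 9 genes, as it was for 75.6% of all genes tested, with the highest Fos, Jun, Atf3, Egr2 and Nr4a1 (5 of 9, 38.7% of all genes) and the lowest Fosl1, Junb, Egr1 and Myc (4 of 9, 36.9%). The heat map of deviations shows these libraries side by side.

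For Nr4a1 and Junb, Dusp6-deficient replicate 1 lay between the WT mean and the mean of replicates 2 and 3, at 41.1% and 55.6% of the distance on the log2 scale. For Fos, Egr1 and Atf3 it lay on the other side of the WT mean, by 0.25, 0.19 and 0.17 on the log2 scale. What sets this library apart was not tested, and its RNA quality was not analysed here.

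Results without Dusp6-deficient replicate 1 are given because it decides the direction or size of several values. WT replicate 3 decides several as well. Without it the log2 fold change was -0.07 for Jun, -0.13 for Atf3, -0.40 for Fosl1, 0.34 for Egr2 and -0.73 for Myc. With 3 WT libraries against 2, Nr4a1 was at a fold of 0.598 (log2 fold change -0.74 ± 0.16, SE) and passed the adjusted p with edgeR's test at 0.0154, though not the fold threshold. It was 1 of 9 genes, where 28.6% of all genes passed the adjusted p in the same fit and 13.1% did so as lower. Atf3 had a log2 fold change of -0.94 (adjusted p = 0.0646) and Egr1 one of -0.44 (adjusted p = 0.0732), both with edgeR, and neither passed. With DESeq2 on the same 5 libraries, Nr4a1 (adjusted p = 3.79e-05), Atf3 (adjusted p = 0.0148) and Egr1 (adjusted p = 0.0239) passed the adjusted p, 3 of 9 genes against 31.6% of all genes. Over all alternatives the adjusted p reached 0.849 for Atf3 without WT replicate 3 and 0.900 for Egr1 without Dusp6-deficient replicate 3, both with edgeR. Both of those fits called few of all genes. The CPM of Fos, Jun, Atf3, Egr1 and Nr4a1 lay lower without overlap, 5 of 9 genes or 55.6% against 29.7% of all genes. Dusp6-deficient replicate 1 held the highest level of its group for 8 of 9 genes, so its removal lowers these genes more often than others. The share of 55.6% restates that choice, and the adjusted p of Nr4a1, Atf3 and Egr1 in these fits rests on it too. For Jun the gap was so small that it closed with the scaling of all 6 libraries. Junb lay higher without overlap, as 29.3% of all genes did, with a log2 fold change of 0.41 at an adjusted p of 0.105 by edgeR, and 59.0% of all genes were separate in one direction or the other. Both thresholds were passed by 0 of 9 genes with either tool. Of all genes, 15.7% passed them with edgeR. With DESeq2, 1150 of 14054 genes passed them as higher and 1202 as lower. In the edgeR fit 4 of 9 genes had an unadjusted p under 0.05, as did 42.8% of all genes. The 5 edgeR fits that each left out another library called few of all genes past both thresholds, from 1 to 68 higher and from 5 to 80 lower, so the adjusted p of these 9 genes in them is not set against the fit without Dusp6-deficient replicate 1.

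Ratios of reads within a library do not depend on how libraries are scaled. The pairs were chosen after their values had been seen and are given as a description without a test. Reads of Junb per read of Nr4a1 numbered 6.87, 6.52 and 5.47 in WT replicates 1, 2 and 3 and 9.11, 14.1 and 13.8 in Dusp6-deficient replicates 1, 2 and 3. This ratio was higher in each Dusp6-deficient library than in any WT library, with means of 6.29 ± 0.726 (SD, n = 3) and 12.3 ± 2.80 (SD, n = 3). The pair holds the gene that lay higher without overlap and the one that lay lower, so its separation restates that choice, and neither gene had passed the adjusted p with all 6 libraries. Among AP-1 genes, reads of Junb per read of Fos numbered 1.36, 1.16 and 1.01 in WT and 1.17, 1.71 and 1.97 in Dusp6-deficient libraries. Reads of Junb per read of Jun numbered 3.29, 2.34 and 1.58 in WT and 2.67, 3.87 and 4.32 in Dusp6-deficient libraries. Both ratios were highest in Dusp6-deficient replicates 2 and 3, with replicate 1 inside the WT range. Reads of Fos per read of Jun were 2.42, 2.02 and 1.57 in WT and 2.28, 2.26 and 2.20 in Dusp6-deficient libraries, all 3 of the latter within the WT range. Of 7 pairs computed, Junb to Nr4a1 was the 1 that did not overlap, and the other 6, among them Egr1 to Egr2, Atf3 to Egr1 and Myc to Atf3, overlapped.

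**Figure D4:**
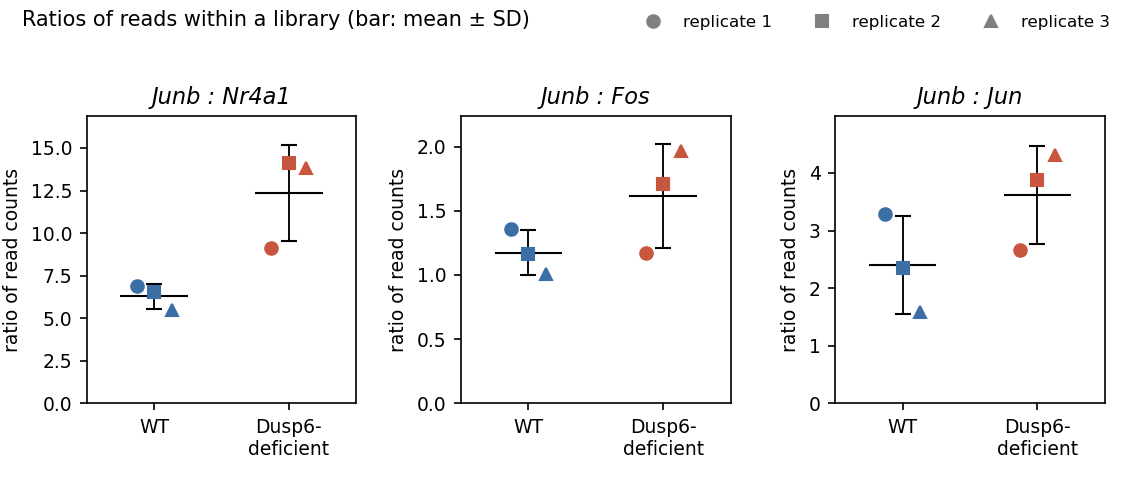
Ratio of read counts within each library (vertical axes, from 0) for Junb to Nr4a1, Junb to Fos and Junb to Jun, with WT in blue, Dusp6-deficient in red, replicates 1, 2 and 3 as circle, square and triangle, and the mean ± SD (n = 3) in black. Junb to Nr4a1 separates the genotypes, and for the other two ratios Dusp6-deficient replicate 1 falls among the WT libraries.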

How the data were processed

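RNA-seq libraries were made with the KAPA RNA HyperPrep kit. The authors trimmed reads with Trim Galore, used HISAT2 for alignment to Rnor_6.0 and took counts by gene from featureCounts 1.5.0-p3 (submitters' processing notes), and the deposited values are raw counts. The annotation release, strand setting and treatment of multi-mapped reads are not given in the sources used here.

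All 6 count columns were used. In R 4.3.3, edgeR 4.0.16 (filterByExpr, TMM, quasi-likelihood test of genotype, Benjamini-Hochberg adjustment over 12756 genes) was the main test and DESeq2 1.42.0 an alternative, with the study's thresholds of 0.05 and a log2 fold change of 1. Standard errors and 95% intervals were derived from the F statistic, and log2 CPM used a prior count of 2. The test was tried on simulated counts. Replicates of a genotype differed by 27.9 to 155 in chi-square per gene, far above sampling noise near 1.

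The members were chosen with earlier results of these data known. Dusp6, gene lists, marker lists and genes of similar profile were to be matched by symbol and were not analysed here, since no table used here pairs the identifiers with names, and the names of the 9 genes came with their list. Promoters came from RefSeq (GRCr8), a later build than that of the counts.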

Additional observations from a re-analysis of the deposited data

How the results depend on the processing

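With every alternative tried, 0 of the 9 genes passed both thresholds with edgeR or DESeq2. Of 126 comparisons of a gene with an alternative fit, 112 kept the direction of the log2 fold change, and the 14 reversals concerned Fos, Fosl1 and Egr2, whose values lay near 0. Fosl1 went from 0.04 to -0.024 with upper-quartile scaling, -0.0071 with at least 10 counts in every library, -0.15 with library totals only and -0.37 with DESeq2 without Dusp6-deficient replicate 1. Egr2 went from 0.07 to -0.0082 with upper-quartile scaling, -0.17 with library totals only and -0.068 with DESeq2 without Dusp6-deficient replicate 1. Relative to the shift in the median of all genes, Fosl1 stayed positive with upper-quartile scaling (0.04), at least 10 counts (0.04) and library totals (0.08), as did Egr2 with upper-quartile scaling and library totals (0.06 each). Relative to that shift, Fosl1 remained negative without Dusp6-deficient replicate 1 (-0.32 with edgeR and with DESeq2) and without WT replicate 3 (-0.36). Egr2 remained negative without WT replicate 1 (-0.09), WT replicate 2 (-0.03) or Dusp6-deficient replicate 1 (-0.02 with either tool). Leaving out each library in turn gave -0.25 to 0.026 for Fos, -0.40 to 0.29 for Fosl1, -0.13 to 0.34 for Egr2, -0.45 to -0.07 for Jun, 0.28 to 0.43 for Junb, -0.94 to -0.13 for Atf3, -0.44 to -0.07 for Egr1, -0.74 to -0.45 for Nr4a1 and -0.77 to -0.11 for Myc. The lowest of Fos, Jun, Atf3, Egr1, Nr4a1 and Myc came without Dusp6-deficient replicate 1. The values nearest 0 came without WT replicate 3 for Jun and Atf3, WT replicate 2 for Myc and Dusp6-deficient replicate 3 for Egr1. Library totals and DESeq2 without Dusp6-deficient replicate 1 were added after the data were seen. Over all genes, 442 were called higher and 275 lower. DESeq2 called 642 higher and 657 lower, no filter on low counts gave 561 higher and 422 lower, no fold change threshold gave 708 higher and 341 lower, library totals gave 170 higher and 412 lower, and DESeq2 without Dusp6-deficient replicate 1 gave 1150 and 1202. Fits without a single library gave 1 to 1083 higher and 5 to 968 lower, the highest without Dusp6-deficient replicate 1. Whether same-numbered libraries were handled together is not given in the sources used here. They had correlations across genes of 0.11, -0.12 and -0.14, and other pairs of a WT and a Dusp6-deficient library ran from -0.13 to 0.21. Of 6 libraries, 2 correlated best with their own number. With 3 libraries per genotype these values cannot settle a pairing. With the replicate block, 298 genes were called higher and 188 lower, and Nr4a1 had a log2 fold change of -0.56.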
